A study of Mus musculus with 4 samples.

Results

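The genes described here are 10 regulators of hematopoietic stem cell (HSC) self-renewal that lie outside the group of 7 factors known as the heptad: *Mn1*, *Mecom*, *Prdm16*, *Hlf*, *Gfi1*, *Etv6*, *Bmi1*, *Hmga2*, *Sall2* and *Myct1*. They were picked by symbol from the 18598 genes listed in the table, and all 10 were found and passed the filter on low values that left 14858 genes for testing. RNA was sequenced from LSK cells, the lineage-negative, SCA-1+ and c-KIT+ fraction of bone marrow, which holds the stem cells together with early progenitors. The *Bptf* cKO group carried homozygous floxed *Bptf* and *Mx1*-cre, and the control group was made of *Bptf* f/f littermates without the cre transgene. Both groups were C57BL/6 mice of about 3 months of age that had received pIpC, an inducer of interferon, and their cells were sorted 10 days after induction. Each genotype had 2 libraries, replicates 1 and 2, each from the pooled cells of 5 mice, so that the values within a genotype differ between pools and not between single animals. *Mx1*-cre is driven by an interferon-responsive promoter and acts in many blood cells, and because the controls lack it, effects of cre and of *Bptf* loss cannot be told apart here.

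HSCs are kept by transcription factors that block lineage commitment, hold the cells in quiescence, or silence inhibitors of the cell cycle. Among the genes here, *Mecom* and *Prdm16* encode related zinc-finger proteins of the PR domain family, *Hlf* a bZIP factor of the PAR group whose RNA marks the most primitive cells, *Gfi1* a zinc-finger repressor that limits HSC cycling and also directs granulocyte and lymphoid differentiation, *Etv6* an ETS-domain repressor needed by adult HSCs, and *Sall2* a zinc-finger factor. Not all of the 10 are DNA-binding transcription factors in the strict sense. *Bmi1* encodes a Polycomb repressive complex 1 (PRC1) subunit known for silencing *Cdkn2a*, *Hmga2* an AT-hook chromatin protein of the fetal program of HSC self-renewal, *Mn1* a transcriptional coregulator known from myeloid leukemia, and *Myct1* a protein found in HSCs and endothelium.

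Promoter sequence is shown for *Gfi1*, *Sall2*, *Hlf* and *Myct1*, the genes with separated genotypes for which a 250-base window before a start site held no annotated exon and either a motif match or one of the larger differences. For *Gfi1* and *Sall2* that start site lies inside the annotated gene, downstream of another start. RefSeq (GRCm38.p6) had windows before a start site, with or without exon bases, for 9 of the 10 genes, 12 windows in all. The windows were searched on both strands for AP-1 (TGACTCA), CRE (TGACGTCA), ETS (CCGGAAGT), the GATA-factor site (AGATAA), E-box (CAGCTG), MEIS (TGACAG), PAR bZIP (TTACGTAA) and GFI1 (AAATCAC) motifs, which stand in capitals below, and these motifs do not overlap each other in the windows printed. Each sequence runs 5′ to 3′ on the strand of its gene.

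*Gfi1*, chr5:107724344-107724593, minus strand: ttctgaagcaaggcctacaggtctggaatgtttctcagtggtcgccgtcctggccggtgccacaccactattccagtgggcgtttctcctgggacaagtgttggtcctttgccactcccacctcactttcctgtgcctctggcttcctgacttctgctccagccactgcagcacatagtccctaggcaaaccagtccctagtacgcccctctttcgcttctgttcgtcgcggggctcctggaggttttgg
*Sall2*, chr14:52316324-52316573, minus strand: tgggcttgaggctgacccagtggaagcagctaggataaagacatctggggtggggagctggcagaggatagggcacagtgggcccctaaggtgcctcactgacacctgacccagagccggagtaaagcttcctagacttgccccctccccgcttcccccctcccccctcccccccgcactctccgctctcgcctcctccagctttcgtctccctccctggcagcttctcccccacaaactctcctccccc
*Hlf*, chr11:90390918-90391167, minus strand: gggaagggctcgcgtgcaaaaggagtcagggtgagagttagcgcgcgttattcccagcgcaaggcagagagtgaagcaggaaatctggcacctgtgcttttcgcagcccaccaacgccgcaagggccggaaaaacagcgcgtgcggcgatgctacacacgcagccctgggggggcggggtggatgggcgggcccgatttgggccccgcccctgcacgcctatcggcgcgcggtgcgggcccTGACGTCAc
*Myct1*, chr10:5593478-5593727, plus strand: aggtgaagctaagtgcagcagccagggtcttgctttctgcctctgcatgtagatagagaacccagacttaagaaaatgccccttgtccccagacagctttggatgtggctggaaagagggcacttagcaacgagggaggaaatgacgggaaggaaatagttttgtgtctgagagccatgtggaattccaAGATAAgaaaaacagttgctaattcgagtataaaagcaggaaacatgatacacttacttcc

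The *Hlf* window held a CRE that begins 9 bases before the start, and 1.55% of the 32851 RefSeq windows of this length held that motif. The *Myct1* window held a GATA match 61 bases before the start, against 9.99% of all windows. The *Gfi1* and *Sall2* windows printed held none of the 8 motifs. GC content of the windows printed ran from 45.6% in *Myct1* to 67.2% in *Hlf*, with a median of 52.4% over all windows. *Gfi1* and *Sall2* each have a further start site in RefSeq, upstream and near the 5′ end of the gene. The windows before those upstream starts held annotated exon bases and are not printed, and they too held none of the 8 motifs. The sequence and GC content printed for *Gfi1* and *Sall2* describe the internal starts alone. *Mecom* has 2 start sites, and the counts per gene do not separate transcripts from different starts.

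No member passed the test between genotypes, which was limma on log2 of the normalized count plus 1, with an adjusted p under 0.05 over all 14858 genes. In that test 0 of the 10 members were lower and 0 were higher in *Bptf* cKO LSK cells, where 0.37% of all tested genes were called lower and 0.37% higher. At an unadjusted p under 0.05 there were 4 members, *Gfi1*, *Mn1*, *Sall2* and *Hlf*, and 15.7% of all tested genes. By position of the libraries, *Mn1*, *Sall2*, *Hlf*, *Myct1* and *Etv6* had both cKO libraries below both control libraries, 5 of 10 against 23.8% of all tested genes. *Gfi1* and *Hmga2* had both cKO libraries above both control libraries, 2 of 10 against 23.2%. The median log2 fold change of the 10 members was -0.34 and that of all tested genes was 0.001. DESeq2 on the whole reads recovered from the deposited values called *Mn1* lower (adjusted p = 0.0118) and *Gfi1* higher (adjusted p = 0.000318), beside 3.3% of genes lower and 2.14% higher in that test.

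**Figure D1:**
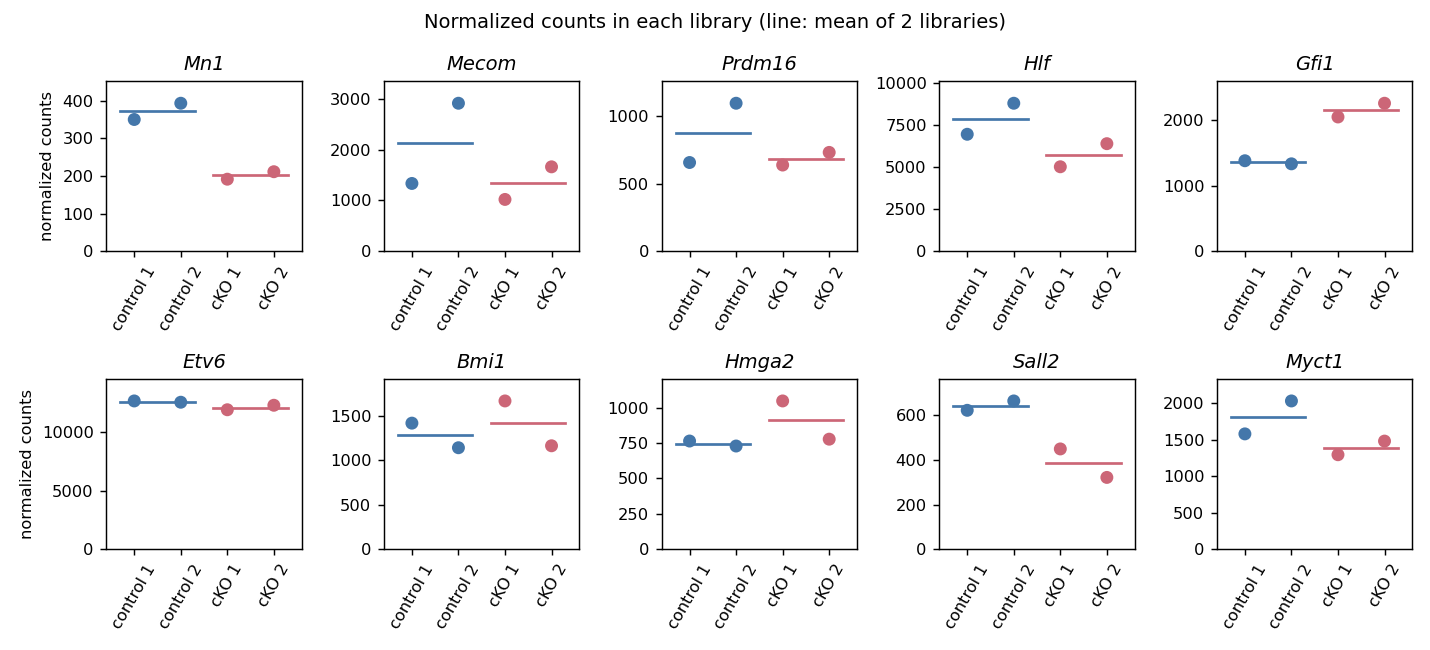
Normalized counts of each gene in the 4 libraries (points; control in blue, cKO in red), on axes that start at 0, with a line at the mean of the 2 libraries of a genotype. *Mn1*, *Sall2* and *Gfi1* show separated genotypes, while the control libraries of *Mecom*, at 1334 and 2911, enclose a cKO value.

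**Figure D2:**
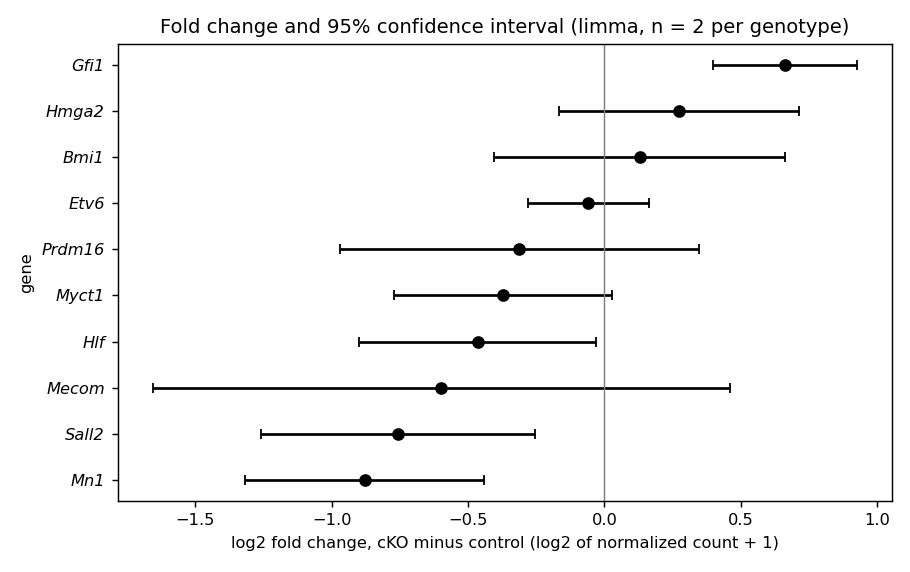
Log2 fold change of cKO against control for each gene (points) with its 95% confidence interval from limma (bars), n = 2 libraries per genotype. The intervals of *Gfi1*, *Hlf*, *Sall2* and *Mn1* leave out 0, before any adjustment over genes.

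*Bptf* itself had 5520 and 5850 normalized counts in the control libraries and 3398 and 3320 in the cKO libraries. It fell by 0.76 on the log2 scale, to 0.591 of the control level (limma adjusted p = 0.0439, and 0.0647 to 0.316 with any library left out). Cre removes exon 2, whereas the counts cover the whole gene. *Kit* was between 13634 and 17051 and *Ly6a*, which encodes SCA-1, between 726.0 and 1743 in the 4 libraries, so both genes that define the sort were present in each. Reads on listed genes numbered 24875746 and 14091054 in the control libraries and 30134742 and 14104526 in the cKO libraries. The libraries with number 2 of both genotypes held pluripotency transcripts, with *Pou5f1* at 582.1 and 737.9 normalized counts against 0 in both libraries with number 1. The list of such transcripts summed to 261 and 1325 normalized counts in control and 194 and 1601 in cKO. Neutrophil and monocyte markers summed to 51929 normalized counts in control replicate 1 and to between 9752 and 21785 in the other libraries. The part of these differences in the results was not tested.

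*Mn1* (ENSMUSG00000070576.4) occupies positions 111417362 to 111457033 of chromosome 5, plus strand (GRCm38, GENCODE vM21, as for all coordinates that follow). It had 350.4 and 393.6 normalized counts in the control libraries and 191.7 and 211.6 in the cKO libraries. The genotypes are separated by 139 normalized counts, more than the spread within either of them, and the libraries of each genotype lie close together. The means were 372 ± 30.6 and 201.7 ± 14.1 (SD, n = 2 each), so that the cKO level was 0.544 of the control level, and the log2 fold change was -0.88 with a 95% confidence interval from -1.32 to -0.44 (limma adjusted p = 0.109). It was the lowest log2 fold change of the 10, with 6.3% of all tested genes lower still. *Mn1* was also the least sequenced of the members, with 452, 284, 295 and 150 reads in control replicates 1 and 2 and cKO replicates 1 and 2.

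*Sall2* (ENSMUSG00000049532.11), at 52311172 to 52328762 of chromosome 14 (minus strand), had 623.2 and 665.3 normalized counts in the control libraries and 449.7 and 321.7 in the cKO libraries. Both cKO libraries were below both control libraries, but they differed from each other by more than the control libraries did. Its log2 fold change was -0.76, with a 95% confidence interval from -1.26 to -0.26 (limma adjusted p = 0.181). The other SALL genes were nearly silent in the libraries with number 1, where *Sall1* and *Sall4* were at 0. In the libraries with number 2, *Sall4*, a factor of pluripotent cells, had 29.1 normalized counts in control and 33.9 in cKO, and *Sall1* had 8.32 and 28.2. *Sall2* had its highest value in control replicate 2 and its lowest in cKO replicate 2, and its relation to that division was not tested.

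*Mecom* (ENSMUSG00000027684.16) spans chromosome 3 from 29951296 to 30548008 on the minus strand and gives rise to both the MDS1-EVI1 and the EVI1 proteins, which gene-level counts do not separate. It had 1334 and 2911 normalized counts in the control libraries and 1020 and 1661 in the cKO libraries. The genotypes overlap, because cKO replicate 2 is above control replicate 1, and the difference between the control libraries, 2.18 times, is larger than that between the genotype means. The log2 fold change was -0.60 with a 95% confidence interval from -1.66 to 0.46 (limma adjusted p = 0.564), the widest interval of the 10. It was -0.035 without control replicate 2 and -1.16 without control replicate 1.

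*Prdm16* (ENSMUSG00000039410.16), the paralog of *Mecom* at 154316125 to 154636873 of chromosome 4 (minus strand), showed a like order of libraries. It had 655.0 and 1092 normalized counts in control and 636.3 and 729.5 in cKO. The highest value was again control replicate 2, and the remaining libraries lay close together. On the log2 scale the difference was -0.31 with an interval from -0.97 to 0.35 (limma adjusted p = 0.634), and it turned to 0.057 without control replicate 2. Of 7 other PR domain genes tested, 0 passed in either direction and their median log2 fold change was 0.13. The largest fold changes among those with a mean of at least 100 were -0.385 for *Prdm11* and 0.29 for *Prdm10* (0.215 and 0.352 as limma adjusted p).

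*Hlf* (ENSMUSG00000003949.16), at 90336536 to 90390895 of chromosome 11 (minus strand), had 6952 and 8795 normalized counts in the control libraries and 5022 and 6394 in the cKO libraries. The genotypes did not overlap, with 558 normalized counts between the nearest libraries, and within each genotype the library with number 2 was 1.27 times the one with number 1. The log2 fold change was -0.46, with a 95% confidence interval from -0.90 to -0.030 (limma adjusted p = 0.293). *Hlf* belongs to the PAR bZIP factors together with *Dbp* and *Tef*, which are known as output genes of the circadian clock. Of 13 tested PAR bZIP and clock genes, 0 passed in either direction, with a median log2 fold change of -0.026. *Dbp* had the lowest log2 fold change, -0.97 (263.5 and 177.4 normalized counts in control, 138.4 and 87.5 in cKO, limma adjusted p = 0.266). *Nfil3*, which encodes a repressor that binds the same sites as the PAR factors, had the highest, 0.71 (limma adjusted p = 0.365).

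*Myct1* (ENSMUSG00000046916.9), at 5593775 to 5606904 of chromosome 10 (plus strand), had 1580 and 2032 normalized counts in control and 1294 and 1481 in cKO. The genotypes did not overlap, but the nearest libraries were only 99 normalized counts apart, less than the spread between the control libraries. Its log2 fold change was -0.37, with an interval from -0.77 to 0.028 (limma adjusted p = 0.35). Since endothelium also has *Myct1*, endothelial markers were examined, and their sum was 6935 and 7055 normalized counts in control and 6325 and 6773 in cKO. Most of that sum was *Tie1* (3675 and 4654 in control, 3315 and 3763 in cKO) and *Pecam1* (2725 and 1659 against 2466 and 2423), which blood stem cells also express. The other markers had lower counts. *Cldn5* was at 10.1 and 19.4 in control and 0.65 and 0 in cKO, and *Cdh5* at 3.10 and 9.70 against 3.90 and 5.64. Both fell under the filter on low values. *Kdr* was at 31.0 and 54.0 against 25.4 and 18.3, and *Flt1* went the other way, at 12.4 and 18.0 against 29.9 and 43.7. *Emcn* (365.9 and 550.2 against 380.9 and 437.4), *Plvap* (91.5 and 65.1 against 100.1 and 50.8) and *Stab2* (20.9 and 24.95 against 3.25 and 31.0) overlapped between genotypes. The part of endothelial cells in the *Myct1* values was not tested. Of 7 tested endothelial markers, 0 passed in either direction.

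*Mecom*, *Prdm16*, *Hlf* and *Myct1* shared their highest library, control replicate 2, and their lowest, cKO replicate 1. Markers of long-term (LT) HSCs, written from textbook knowledge, had the same order of summed levels at both ends, with 19155 and 25392 normalized counts in control and 15065 and 18571 in cKO. Of 20 LT-HSC markers tested, 2 fell and 0 rose in limma, and the median log2 fold change was -0.73. Both cKO libraries were below both control libraries for 13 of them, against 23.8% of all tested genes. For 1 both were above, against 23.2%. *Gprasp2* had 296.1 and 342.3 normalized counts in control and 64.3 and 60.7 in cKO, with little spread within either genotype. *Gprasp2* and *Pdzk1ip1* were the 2 that fell, by 2.33 and 1.14 on the log2 scale (limma adjusted p = 0.0261 and 0.0444). Of the calls in all lists outside the 10 members, 3 in total, none was kept without cKO replicate 1 or without cKO replicate 2, and 1 lower call was made without control replicate 2. The sum of multipotent progenitor markers was lowest in control replicate 2, at 40161 normalized counts, and 68342 to 87650 in the others. Of its 12 genes, *Dntt*, which marks lymphoid-primed progenitors, had 7907 and 2692 normalized counts in control and 1658 and 584.1 in cKO (log2 fold change -2.23, limma adjusted p = 0.221). In pooled LSK cells, fewer stem cells and less RNA of a gene per cell cannot be told apart.

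**Figure D3:**
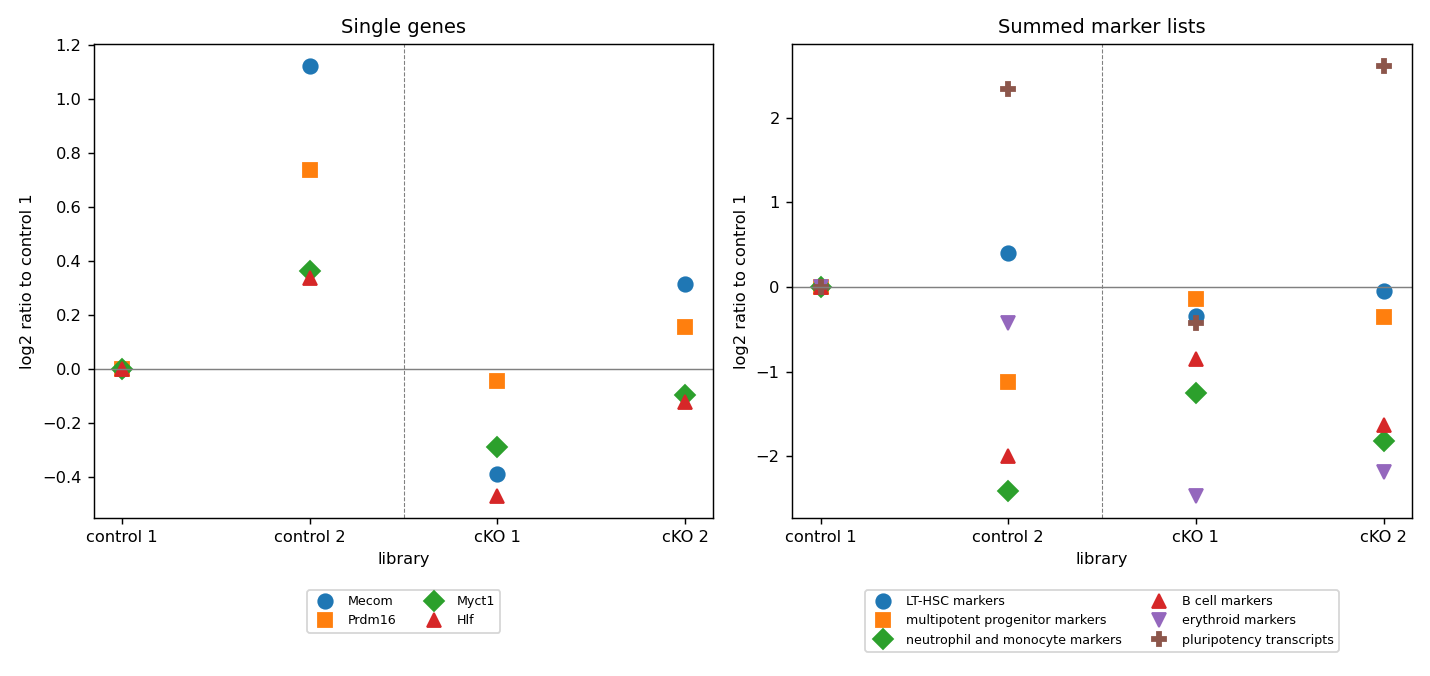
Log2 ratio of each library to control replicate 1 for *Mecom*, *Prdm16*, *Myct1* and *Hlf* (left) and for the summed normalized counts of 6 marker lists (right), with a dashed line between the genotypes. All 4 genes and the LT-HSC markers are highest in control replicate 2, where the progenitor, neutrophil and B cell sums are lowest, and the pluripotency transcripts are high in both libraries with number 2.

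*Gfi1* (ENSMUSG00000029275.18), at 107716657 to 107726036 of chromosome 5 (minus strand), went the other way. It had 1380 and 1333 normalized counts in the control libraries and 2047 and 2256 in the cKO libraries. The genotypes were 668 normalized counts apart, several times the spread within either. The means were 1356 ± 32.8 and 2152 ± 148 (SD, n = 2 each), so that the cKO level was 1.58 times the control level. The log2 fold change was 0.66, with a 95% confidence interval from 0.40 to 0.93 (limma adjusted p = 0.0726), and 93.9% of all tested genes had a lower one. The antisense gene *A430072P03Rik* shares 101 exonic bases with *Gfi1* and had 43.4 and 30.5 normalized counts in control and 70.2 and 50.8 in cKO. Whether strand was used in counting is not given in the sources used here, so reads of the pair may be shared. Their part in the *Gfi1* values was not tested.

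*Gfi1b*, the paralog of *Gfi1* that acts in stem cells, erythroid cells and megakaryocytes, had lower values in cKO. Its normalized counts were 716.2 and 849.6 in control and 455.6 and 620.8 in cKO, which is -0.55 as log2 fold change (limma adjusted p = 0.279), and it was singled out after its values were seen. Of the 11 tested repressor partners of GFI1, with *Gfi1b* among them, 0 passed in either direction and the median log2 fold change was -0.073. *Rcor3*, a corepressor of the CoREST family, had the lowest at -0.91 and *Ajuba*, a LIM protein, the highest at 0.77 (limma adjusted p = 0.209 and 0.22). Because *Gfi1* is also a gene of granulocyte progenitors, granule genes on the marker lists are given beside it, and they did not go one way. *Ctsg*, which encodes cathepsin G, had 2652 and 673.6 normalized counts in control and 10040 and 9445 in cKO (log2 fold change 2.86, limma adjusted p = 0.128). *Mpo*, myeloperoxidase, had 28963 and 6313 in control and 30321 and 28192 in cKO, and *Elane*, neutrophil elastase, 2005 and 792.8 against 2108 and 1813. For both of these, control replicate 2 stood below the other libraries. *Prtn3*, proteinase 3, had 4990 and 1961 in control and 3721 and 3556 in cKO. The later granule genes *Ngp* and *Camp* had log2 fold changes of -0.56 and -0.45, and *Lyz2*, lysozyme, was at -0.62 with both cKO libraries below both control libraries (limma adjusted p = 0.882, 0.912 and 0.4). Of the 10 neutrophil and monocyte markers, 7 had a log2 fold change below 0, with a median of -0.445. The part of granulocyte progenitors in the *Gfi1* values was not tested.

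*Etv6* (ENSMUSG00000030199.16), at 134035700 to 134270158 of chromosome 6 (plus strand), had the narrowest interval of the 10. It had 12665 and 12555 normalized counts in control and 11912 and 12296 in cKO. All cKO values were below the control values, by 4.0% on average, and the log2 fold change was -0.059 with an interval from -0.28 to 0.16 (limma adjusted p = 0.814). Of the 17 other ETS genes tested, 0 passed in either direction, and their median log2 fold change was 0.040. *Etv4*, an ETS activator of the PEA3 group, had 14.7 and 83.2 normalized counts in control and 335.4 and 894.5 in cKO, 3.92 as log2 fold change (limma adjusted p = 0.138). *Ets1*, a lymphoid ETS factor, had the lowest log2 fold change among those with a mean of at least 100, -0.52 (limma adjusted p = 0.544).

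*Bmi1* (ENSMUSG00000026739.13), at 18677018 to 18686629 of chromosome 2 (plus strand), had 1418 and 1141 normalized counts in control and 1668 and 1163 in cKO. The genotypes overlapped, and in each the library with number 1 was the higher. As log2 fold change this was 0.13 with an interval from -0.40 to 0.66 (limma adjusted p = 0.832), and its sign turned when control replicate 2 or cKO replicate 1 was left out, at -0.026 and -0.13. Of 22 genes of other PRC1 and PRC2 subunits tested, 0 passed in either direction, and the median log2 fold change was -0.13. Both cKO libraries were below both control libraries for 10 of them, against 23.8% of all tested genes. For 6 both were above, against 23.2%. *Cbx7*, a chromodomain subunit of PRC1, had 907.7 and 875.9 normalized counts in control and 436.1 and 522.0 in cKO, -0.90 as log2 fold change (limma adjusted p = 0.0745). *Ring1*, an E3 ligase subunit, was at 0.35 on that scale (limma adjusted p = 0.317). The known BMI1 targets *Cdkn2a* and *Cdkn2b* were not analysed here. Of 5 other cyclin-dependent kinase inhibitors 0 passed, with log2 fold changes from -0.35 for *Cdkn2d* to 1.94 for *Cdkn1a* (limma adjusted p = 0.415 and 0.228). *Cdkn1a*, which encodes p21, had 794.5 and 213.4 normalized counts in control and 1676 and 1486 in cKO.

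*Hmga2* (ENSMUSG00000056758.14), at 120361275 to 120476469 of chromosome 10 (minus strand), had 764.3 and 729.0 normalized counts in control and 1048 and 777.4 in cKO. Both cKO libraries were above both control libraries, but cKO replicate 2 by only 13.2 normalized counts. The log2 fold change was 0.27 with an interval from -0.17 to 0.71 (limma adjusted p = 0.519). Among the genes of the axis in which LIN28 proteins and the let-7 microRNAs they restrain set HMGA2 levels, 8 were tested and 0 passed. *Lin28b*, the form of fetal HSCs, was at 12.4 and 23.6 normalized counts in control and 12.3 and 11.3 in cKO. Of the axis genes with a mean of at least 100, *Arid3a*, a B-lineage factor, had the highest log2 fold change at 0.39 and *Igf2bp2*, an mRNA-binding protein, the lowest at -0.11 (limma adjusted p = 0.567 and 0.853). The antisense gene *1700006J14Rik* shares 140 exonic bases with *Hmga2* and had 95.3 and 29.1 normalized counts in control and 56.5 and 76.2 in cKO. The part of shared reads in the *Hmga2* values was not tested. Antisense genes also share exonic bases with *Mecom* (*Mecomos*, 81 bases), *Etv6* (*Gm17089*, 135) and *Prdm16* (*B230104I21Rik*, 109, not among the listed genes). Their part was not tested either.

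Levels of different genes were compared as normalized counts per kb of the longest annotated transcript. In control LSK cells the order was *Etv6* (2210 per kb), *Hlf* (1400), *Myct1* (635), *Gfi1* (474), *Mecom* (373), *Bmi1* (356), *Hmga2* (196), *Sall2* (125), *Prdm16* (102) and *Mn1* (54.2), each the mean of 2 libraries. *Gfi1* and *Mecom*, *Mecom* and *Bmi1*, and *Sall2* and *Prdm16* overlapped in their control libraries and are not ordered by these data. With the mean length over all annotated transcripts, *Etv6* and *Hlf* stayed highest and *Mn1* lowest, while *Bmi1* moved to place 3 and *Myct1* to place 5. In cKO LSK cells *Gfi1*, at 752 ± 51.6 per kb of the longest transcript (SD, n = 2), stood above *Myct1* at 488 ± 46.6, which reverses their order in control at that length. With the mean length, the control means were 614 per kb for *Gfi1* and 635 ± 112 for *Myct1* (SD, n = 2), which does not order them in control.

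**Figure D4:**
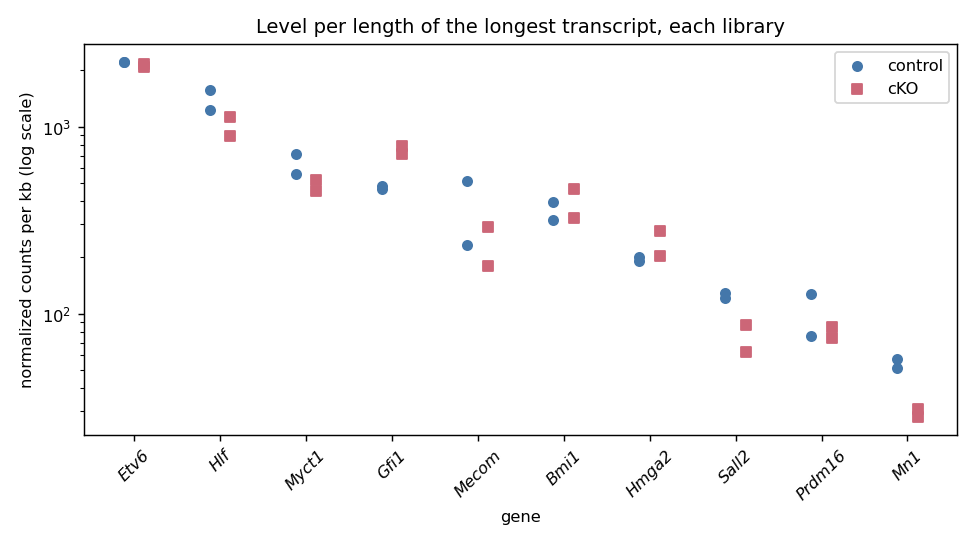
Normalized counts per kb of the longest transcript, on a log scale, in each control library (blue circles) and cKO library (red squares), with genes in order of the control mean. The genes range from 2210 per kb for *Etv6* to 54.2 for *Mn1* in control, and the cKO values of *Gfi1* lie above those of *Myct1*.

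Other blood stem cell transcription factors, listed with a few regulators of other kinds such as *Msi2* and *Txnip*, gave a background of the same kind. Of 29 tested, 0 were called lower or higher in limma, and the median log2 fold change was -0.22. Both cKO libraries were below both control libraries for 12 of them, against 23.8% of all tested genes. For 3 both were above, against 23.2%. *Egr1*, an immediate-early factor linked to HSC quiescence, had 4588 and 18261 normalized counts in control and 3357 and 3915 in cKO, and its log2 fold change of -1.34 was the lowest of the list (adjusted p in limma 0.392). *Zbtb16*, which encodes the repressor PLZF, had 214.7 and 73.5 in control and 250.2 and 160.8 in cKO, and was the highest at 0.67 (limma adjusted p = 0.626). Among lineage markers, 1 gene passed the test, and it was erythroid. Of 9 erythroid markers tested, 7 had both cKO libraries below both control libraries, against 23.8% of all tested genes. *Epor*, the erythropoietin receptor, fell by 1.96 on the log2 scale (limma adjusted p = 0.0443). The erythroid markers summed to 2728 and 2040 normalized counts in control and 493 and 601 in cKO. B cell markers summed to 9435 and 2373 normalized counts in control and 5244 and 3046 in cKO, megakaryocyte markers to 5600 and 3166 against 4467 and 3887, T and NK cell markers to 214 and 128 against 203 and 144, and stroma markers to 5660 and 3529 against 5123 and 3643. In each of these sums, control replicate 1 was the highest library. Most of the stroma sum was *Runx2* (3621 and 2850 in control, 3508 and 2799 in cKO) and *Pdgfrb*, and most of the megakaryocyte sum was *Itga2b*. In these lists and in those of multipotent progenitor, neutrophil and monocyte, and pluripotency genes, 0 genes passed the test in either direction.

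**Figure D5:**
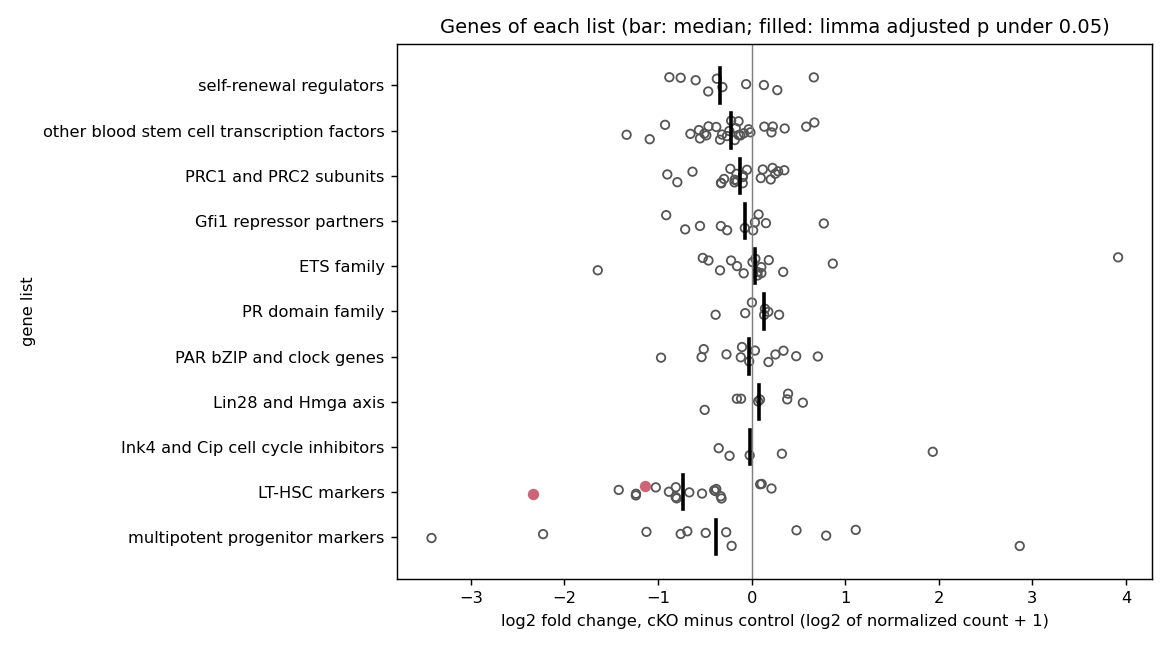
Log2 fold change of cKO against control for every tested gene of the self-renewal regulators, of the lists of related factors, and of the LT-HSC and multipotent progenitor markers (open circles), with a black bar at the list's median and filled red circles for genes with a limma adjusted p under 0.05. None of the 10 self-renewal regulators is filled, and the 2 filled genes are LT-HSC markers. The other lineage markers, with the called gene *Epor*, are not drawn.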

How the data were processed

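RNA-seq of sorted LSK cells was analysed in 2 *Bptf* cKO and 2 *Bptf* f/f control libraries, grouped by the sample labels. The authors deposited a signal per gene and library, gene counts divided by a size factor, for 18598 genes. The submitters' processing notes name HISAT2, featureCounts, DESeq2 and the builds GRCm38 and mm10, and the strand setting and annotation are not given in the sources used here. Columns of the authors' own comparison (mean, fold change, error, statistic, p-values) were not used. All deposited values (100%) were within 0.1 of a whole multiple of 1 read, and whole reads were recovered from them. Counting error weighs most on genes with few reads, and no member had under 150 reads in a library.

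A minimum mean of 10 normalized counts left 14858 genes, tested on log2(value + 1), a scale that understates changes of low genes, with limma 3.58.1 in R 4.3.3, trended, two-sided, with a term for genotype alone and p-values adjusted by Benjamini-Hochberg. The labels name replicates but no separate experiments, so p-values measure the spread between pools. With 2 against 2 libraries, an exact permutation test of 1 gene cannot go below p = 0.333. edgeR 4.0.16 and DESeq2 1.42.0 on the recovered reads were among 17 alternatives, and the limma, edgeR and DESeq2 fits were tested on simulated data. The simulated counts had no effect shared by same-numbered libraries, so they cannot show which fit suits these data. The members and gene lists were chosen with earlier results of these data known. Named were all members, *Bptf*, and from each list the summed level (cell type lists), the called genes or else the highest and lowest log2 fold change at a mean of at least 100. *Kit*, *Ly6a*, the antisense genes, *Gfi1b*, *Lin28b*, the SALL genes, *Pou5f1* and the named granule and endothelial genes were added after their values were seen. *Cdkn2a* and *Cdkn2b* are outside the genes analysed, and 3 genes of the lists are not reported here. Coordinates and lengths came from GENCODE vM21 (GRCm38), matched by symbol for 10 of 10 members.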

Additional observations from a re-analysis of the deposited data

How the results depend on the processing

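The count of members called stayed at 0 lower and 0 higher in limma and edgeR fits without a block, with any library left out, and under the other pseudocounts, filters and scalings. DESeq2 called 1 lower and 1 higher, with 490 and 318 of all genes and 16 lower in the other lists. With the replicate number as a replicate block, limma called 5 members lower (*Mn1*, *Sall2*, *Mecom*, *Hlf*, *Myct1*) and 1 higher (*Gfi1*), with 1242 and 896 of all genes and 53 and 12 genes of the other lists, and edgeR with the replicate block called the same numbers of members, 1229 and 891 of all genes and 53 and 10 of the lists. The labels give the replicates only a number, and same-numbered libraries deviated together with a correlation of 0.452 across genes, a hint from the data and not the design. Without the trend, limma called 0 and 2 of all genes and 0 lower in the lists, and edgeR without the block called 1 lower in the lists. Leaving out a library in turn gave 0 to 41 genes lower and 1 to 76 higher over all genes (0 and 1 without either cKO library, 17 lower without control replicate 2), 0 to 3 lower and 0 to 6 higher in the lists, and a median of the members from -0.594 without control replicate 1 to -0.05 without control replicate 2. A lone remaining library was then assumed to vary like the other group. The log2 fold change of *Prdm16* ran from -0.68 without control replicate 1 to 0.057 without control replicate 2, and that of *Bmi1* from -0.13 without cKO replicate 1 to 0.391 without cKO replicate 2, with -0.026 without control replicate 2. The cause was not tested. The replicate 1 pair alone, in which *Pou5f1* was at 0, gave a median of -0.188 and the replicate 2 pair -0.458. In each pair 7 members were lower and 3 higher, but with 1 library per genotype nearly every gene lies on one side. The share of all genes lower in each pair was not computed. Over the 4 libraries, 49.8% of tested genes had a log2 fold change below 0. With libraries recentred on their medians, *Etv6* overlapped between genotypes and 4 members lay below. Without recentring, 23.8% of all tested genes did. *Mn1* had the fewest reads of the members, 150 in cKO replicate 2.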
